A study of Mus musculus with 8 samples.

Results

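The metabotropic glutamate receptor genes *Grm2*, *Grm3*, *Grm4*, *Grm5*, *Grm7* and *Grm8* were followed across the dorsal and the ventral medial entorhinal cortex (MEC). They were taken by symbol from the deposited expression table, in which all 6 were found among 38553 genes. The animals were 13 males of the strain C57BL/6JolaHsd at 8 weeks of age, with no treatment named. One sagittal slice 400 µm thick, holding the right MEC, was used per mouse and microdissected into a dorsal and a ventral piece. The tissue was pooled over 3 or 4 mice by region, which gave 4 dorsal and 4 ventral libraries, so that libraries of a region differ as pools of mice do. Expression is given as FPKM, the fragments of a gene scaled by exon length and by sequencing depth. This allows levels of different genes to be set side by side. The cDNA was amplified before sequencing, and the scaling does not correct for differences between genes in that step.

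Metabotropic glutamate receptors are G protein-coupled receptors through which glutamate adjusts excitability and transmitter release more slowly than through its ion channels. Group I, here *Grm5*, couples to Gq and phospholipase C and lies mostly at the edge of the postsynaptic density, where Homer proteins hold it. Group II (*Grm2*, *Grm3*) and group III (*Grm4*, *Grm6*, *Grm7*, *Grm8*) couple to Gi/o, lower cAMP and mostly act as brakes on release from presynaptic terminals, although *Grm3* is also a receptor of astrocytes. *Grm6* is known as the receptor of ON bipolar cells in the retina.

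The region of a library was taken from the authors' dorsal and ventral means and not from the column headers. Averaged together, the columns D1, V1, D2 and V2 equalled the authors' dorsal mean within 0.1% for 38546 of 38553 genes, and the mean over D3, V3, D4 and V4 equalled their ventral mean for 38544. The header letter therefore names the other region for 4 of the 8 libraries, and the assignment rests on this match of values. With regions by header letter instead, 1 of the 13674 genes tested was called. Values per library are given below in the order D1, V1, D2, V2 for dorsal and D3, V3, D4, V4 for ventral MEC. Fragment totals were not used and the total depth is not given here. Between 20015 and 20979 genes had an FPKM above 0 in a library, and of 4707 genes with a mean FPKM under 0.1 between 1568 and 2115 were above 0. The dorsal libraries had 1747 to 2115 of these and the ventral libraries 1568 to 2015, which overlap.

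The dorsal and ventral libraries of the group II genes *Grm2* and *Grm3* lay apart in the deposited FPKM, though not when scaled to equal total FPKM. For this pair of one receptor group the upstream sequences are shown. Each holds 250 bases before and 50 after a transcription start in RefSeq, on GRCm38.p6, read 5′ to 3′ on the gene's strand, with the letters GGGCGG on either strand (a GC box, the core bound by Sp1-type factors) in capitals. The *Grm2* window is chr9:106656060-106656359 on the minus strand and the *Grm3* window chr5:9725303-9725602 on the minus strand. The *Grm3* window lies wholly upstream of the gene span from GENCODE M21 given below, which starts at 9725170 on that strand. The start in RefSeq thus differs from that one.
Grm2: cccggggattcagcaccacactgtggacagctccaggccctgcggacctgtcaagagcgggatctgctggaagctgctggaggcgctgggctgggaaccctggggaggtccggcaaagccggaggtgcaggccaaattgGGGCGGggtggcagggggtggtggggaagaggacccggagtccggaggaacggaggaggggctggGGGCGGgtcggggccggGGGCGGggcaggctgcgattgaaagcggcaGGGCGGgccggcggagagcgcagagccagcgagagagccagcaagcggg
Grm3: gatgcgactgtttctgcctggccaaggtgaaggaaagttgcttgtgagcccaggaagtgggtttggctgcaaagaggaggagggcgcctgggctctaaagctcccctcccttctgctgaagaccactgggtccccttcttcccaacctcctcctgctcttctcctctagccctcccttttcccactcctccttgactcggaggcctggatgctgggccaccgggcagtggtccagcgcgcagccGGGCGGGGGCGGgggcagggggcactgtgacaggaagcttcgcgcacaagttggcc
The *Grm2* window held 4 GC boxes and 22 CpG dinucleotides, and the *Grm3* window held 2 adjoining GC boxes and 11 CpG. For comparison, 35.7% of the 32851 windows in the RefSeq set held GGGCGG on either strand, and the median window had 7 CpG. In G and C the windows reached 72.0% and 63.7%, against a median of 52.7%. Neither held TATAAA (13.6% of windows) or the cAMP response element TGACGTCA (1.79% of windows) on either strand. The letters CCAAT (37.4% of windows) were found 1 time in the *Grm2* window and not in the *Grm3* window. Windows were matched for 4 of the 6 genes, and the others are *Grm4* and *Grm5*. These matches describe letters only.

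In level each receptor stood 1.39 to 2.13 times above the next lower one, averaged over all 8 libraries. *Grm5* had the highest level, with a mean FPKM of 64.0 ± 6.68 (SD, n = 8 libraries), above that of 94.0% of the 13674 genes tested. *Grm3* followed at 40.0 ± 2.91 and *Grm7* at 27.1 ± 2.60. *Grm3* and *Grm7* couple to Gi/o, *Grm5* to Gq. *Grm2* had a mean of 19.5 ± 2.02, *Grm8* of 9.14 ± 1.51 and *Grm4* of 6.10 ± 0.764, the last still above 42.3% of the genes tested. The ranges of neighbours in this order did not overlap, and the higher gene of each pair was the higher in 8 of 8 libraries. *Grm8* and *Grm4* came nearest to each other, with a lowest FPKM of 7.25 for *Grm8* and a highest of 7.15 for *Grm4*.

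Summed over the 6 genes, FPKM was 170 ± 11.9 (SD, n = 4) in dorsal and 162 ± 9.94 in ventral libraries, with ranges that overlapped. *Grm5* made up 34.8 to 38.3% of the sum dorsally and 37.2 to 42.1% ventrally. The group II genes together made up 35.8 to 40.2% dorsally and 32.0 to 36.9% ventrally, and the group III genes 25.0 to 27.3% and 23.2 to 26.0%. The share of each group thus overlapped between regions. In the deposited FPKM, the sum of *Grm2* and *Grm3* ran from 59.8 to 67.0 in dorsal and from 53.7 to 57.5 in ventral libraries, without overlap. With libraries scaled to equal total FPKM this sum overlapped. The total was largest in the dorsal library V2 (341402) and smallest in the ventral library D3 (298763). The sum of *Grm4*, *Grm7* and *Grm8* overlapped as deposited, at 39.9 to 48.5 against 35.9 to 44.8. These sums are descriptions of genes chosen with their values known, and no test was made on them.

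**Figure D1:**
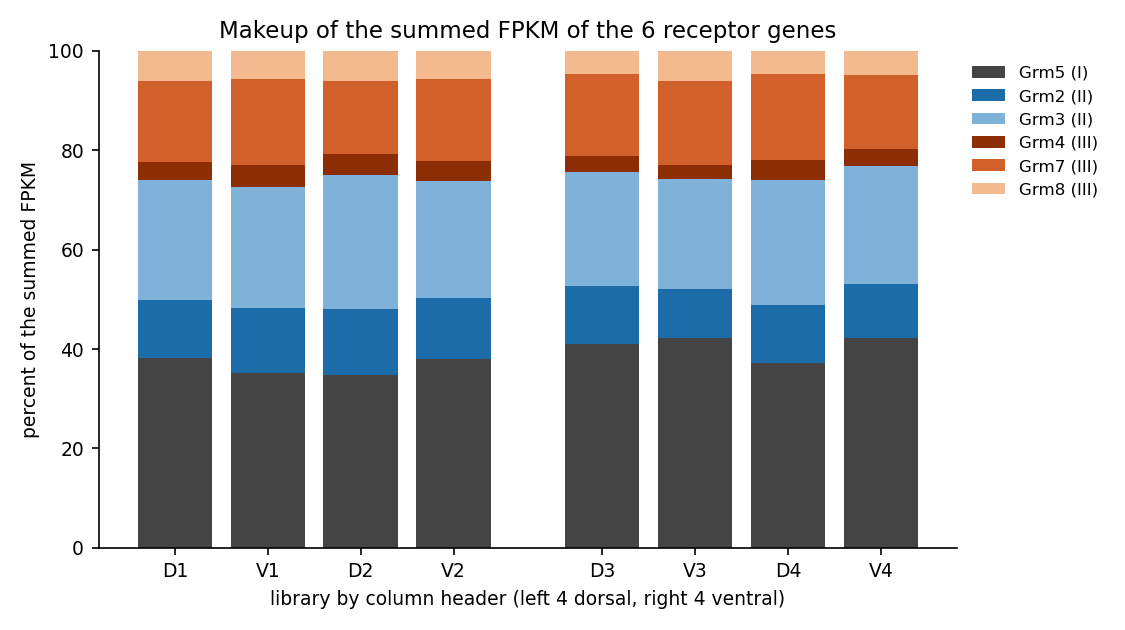
Share of each receptor gene in the summed FPKM of the 6 genes (y axis, percent), 1 bar per library named by its column header (x axis), with the 4 dorsal libraries left and the 4 ventral right. *Grm5* (dark grey) is the largest single part in all 8 libraries, and the blue group II parts together reach 40.2% in D2, the largest share of that group.

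Along the dorsoventral axis, 5 of the 6 receptors had a lower mean ventrally, and *Grm5* a slightly higher one. Of all 13674 genes tested, 51.2% had a lower ventral mean. For *Grm2*, *Grm3* and *Grm4*, every dorsal library lay above every ventral one in the deposited FPKM, with ventral means lower by 15.9%, 10.2% and 19.5%. Dorsal and ventral libraries lay apart in one or the other direction for 11.1% of the genes tested, and apart with the dorsal libraries higher for 6.17% and with the ventral libraries higher for 4.95%. A dorsal mean at least 20% above the ventral one, measured as a log2 ratio, was found for *Grm4* and *Grm8*, and for 10.5% of all genes. The opposite, a ventral mean at least 20% above the dorsal one, was found for 9.25% of all genes and for none of the 6 receptors. None of the 6 receptors was called, where a call needs an adjusted p under 0.05 in limma, over all genes tested, together with a log2(V/D), the log2 of the ventral over the dorsal mean FPKM, beyond 0.263 on either side, which is a ratio of 20%. Of all genes 3.60% were called, 2.15% as higher dorsally (D>V) and 1.45% as higher ventrally (V>D), which is 294 and 198 genes. With libraries scaled to equal total FPKM these were 195 and 201, so the split between the directions rests on the scaling. At equal total FPKM the dorsal and ventral libraries of *Grm2* and *Grm3* overlapped. The differences in log2(FPKM + 1) of *Grm2*, *Grm3* and *Grm4* were then −0.19, −0.10 and −0.23 (adjusted p of 0.346, 0.648 and 0.237, limma). At an unadjusted p under 0.05 stood 4 of the 6 receptors and 16% of all genes. The median log2(V/D) was −0.20 over the 6 receptors and −0.01 over all genes tested.

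**Figure D2:**
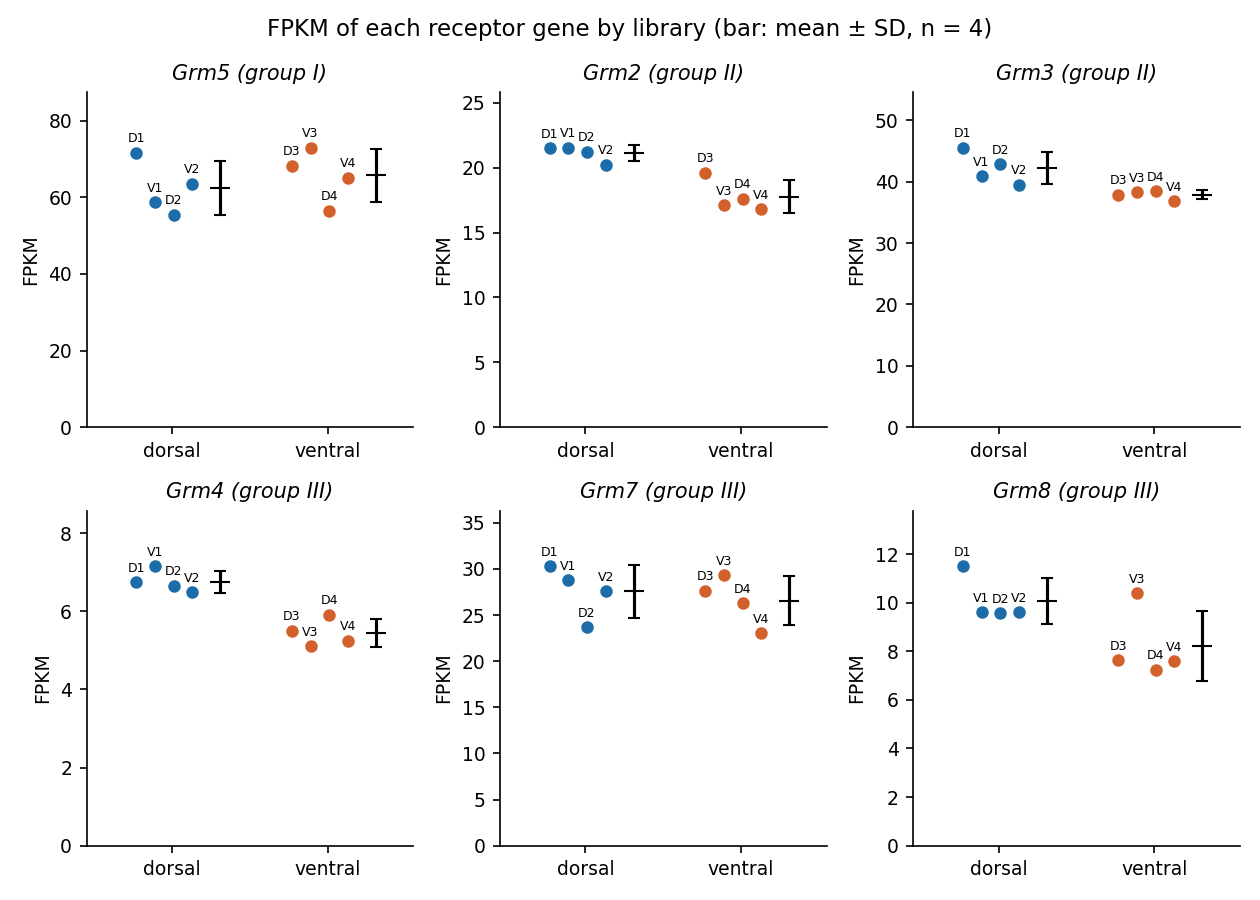
FPKM (y axis, from 0) of each receptor gene in the dorsal (blue) and ventral (orange) libraries, 1 point per library labelled by its column header, with the mean ± SD of 4 libraries as a black bar. The blue and orange points lie apart for *Grm2*, *Grm3* and *Grm4* and overlap for *Grm5*, *Grm7* and *Grm8*.

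In bulk tissue, fewer cells of a type and less RNA per cell cannot be told apart. All 6 markers of oligodendrocytes were D>V (among them *Mbp*, *Mog*, *Mag*, *Mobp* and *Cnp*), with a summed FPKM of 808 to 1074 in dorsal and 447 to 586 in ventral libraries. Among 6 markers of GABAergic neurons, *Pvalb* was D>V, with a mean FPKM of 15.7 against 6.63, and *Sst* V>D, with 109 against 220. *Gad1* lay apart with the dorsal libraries higher and *Gad2* with the ventral ones higher, but neither was called. *Slc32a1* and *Vip* overlapped. The summed FPKM of the 6, *Sst* included, was 231 to 301 in dorsal and 308 to 398 in ventral libraries. None of 4 markers of glutamatergic neurons was called, and their summed FPKM overlapped, at 551 to 702 dorsally and 572 to 733 ventrally. Of the choroid plexus markers *Ttr* and *Folr1* were listed at 0 in the ventral mean and *Kl* was not called, and of the leptomeningeal markers 2 of 4 tested were V>D. Of 4 genes listed for CA1 and subiculum 3 were V>D (*Fibcd1*, *Fn1* and *Nts*) and 1 was D>V (*Wfs1*). *Nts* and *Wfs1* are also expressed within layers of the MEC, so the list does not mark neighbouring tissue alone. Of the dentate markers only *Prox1* was tested, and it was not called. Of 3 markers of oligodendrocyte precursors *Olig1* was D>V, while *Pdgfra* and *Cspg4* lay apart with the ventral libraries higher but were not called, and the median log2(V/D) of the 3 was 0.26. Of 2 layer II markers *Calb1* was V>D, while *Reln* overlapped between regions and was not called (adjusted p = 0.368, limma). By limma 0 of 5 microglial, 0 of 5 vascular and 0 of 2 layer V markers were called. The part of these differences in the receptor values was not tested.

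*Grm5* (ENSMUSG00000049583, chromosome 7, 87584168 to 88134907 on GRCm38, plus strand) encodes mGlu5, the main group I receptor of the forebrain. Its FPKM was 71.6, 58.7, 55.5 and 63.5 in the dorsal and 68.2, 72.9, 56.5 and 65.2 in the ventral libraries. The regions overlapped, and the lowest and the second highest library were both dorsal. The means were 62.4 ± 7.01 (SD, n = 4) and 65.7 ± 6.89. The difference in log2(FPKM + 1), ventral minus dorsal, was 0.07 ± 0.10 (SE, 95% interval −0.14 to 0.29), with an adjusted p of 0.781 from limma. An exact permutation test (two-sided, 70 arrangements) gave p = 0.514. A difference of more than 0.29 in the ventral direction or 0.14 in the dorsal lay outside this interval.

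*Grm2* (ENSMUSG00000023192, chromosome 9, 106643095 to 106656082, minus strand) encodes mGlu2, a receptor of glutamatergic axons and terminals, and with 13.0 kb it is the shortest of the 6 genes. Its FPKM was 21.5, 21.5, 21.2 and 20.2 in the dorsal and 19.6, 17.1, 17.6 and 16.8 in the ventral libraries. The ventral library D3 came closest to the dorsal ones. The means were 21.1 ± 0.608 (SD, n = 4) and 17.8 ± 1.26, at a log2(V/D) of −0.25. On the log2(FPKM + 1) scale the difference was −0.24 ± 0.06 (SE, 95% interval −0.38 to −0.10), with an adjusted p of 0.0793 from limma. The exact permutation test gave p = 0.0286 (two-sided, unadjusted), the smallest that 4 against 4 libraries allow. Every gene whose regions lie apart gets this p, and 11.1% of the genes tested did in the deposited FPKM. It therefore restates that separation and adds nothing to it. Both the adjusted p and the ratio of means, at a difference of 20%, missed the thresholds for a call.

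*Grm3* (ENSMUSG00000003974, chromosome 5, 9485541 to 9725170, minus strand) encodes mGlu3, found in astrocytes as well as in neurons and the receptor most often linked to the peptide transmitter NAAG. Its FPKM was 45.5, 40.9, 42.8 and 39.5 in the dorsal and 37.9, 38.3, 38.4 and 36.9 in the ventral libraries. The regions lay apart, but narrowly, with the dorsal library V2 at 39.5 and the ventral library D4 at 38.4. The means were 42.2 ± 2.61 (SD, n = 4) and 37.9 ± 0.707, at a log2(V/D) of −0.16. The difference in log2(FPKM + 1), ventral minus dorsal, was −0.15 ± 0.06 (SE, 95% interval −0.28 to −0.02), with an adjusted p of 0.251 from limma. The exact permutation test, two-sided, gave the same smallest p of 0.0286, which again only restates that the regions lay apart in the deposited FPKM. None of the 7 astrocyte markers was called. Of these, 3 lay apart with the ventral libraries higher (*Gfap*, *Aqp4* and *Slc1a3*), and 2 had a lower ventral mean, *S100b* at a log2(V/D) of −0.16 and *Aldh1l1* at −0.02. The summed FPKM of the astrocyte markers was 340 to 350 in dorsal and 337 to 384 in ventral libraries. The part of astrocytes in the *Grm3* values was not tested.
Within each library, *Grm2* had 0.473 to 0.527 of the FPKM of *Grm3* dorsally and 0.447 to 0.517 ventrally. The balance of the group II receptors thus overlapped between the regions.

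*Grm4* (ENSMUSG00000063239, chromosome 17, 27422387 to 27521403, minus strand) encodes mGlu4, a presynaptic receptor best known from cerebellar granule cell terminals, and had the lowest level of the 6. Its FPKM was 6.74, 7.15, 6.65 and 6.48 in the dorsal and 5.51, 5.10, 5.92 and 5.24 in the ventral libraries. The regions lay apart, and the spread within each was small. The means were 6.76 ± 0.282 (SD, n = 4) and 5.44 ± 0.358, at a log2(V/D) of −0.31, past the 20% threshold. Between regions log2(FPKM + 1) had a difference of −0.27 ± 0.07 (SE, 95% interval −0.43 to −0.11), with an adjusted p of 0.0707 from limma. In the exact permutation test (two-sided) p was again 0.0286, as for any gene whose regions lie apart. *Grm4* was D>V only when libraries were weighted by quality, with an adjusted p of 0.0497 in limma, while the other 6 settings that kept all 8 libraries in their regions gave between 0.0586 and 0.237.

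*Grm7* (ENSMUSG00000056755, chromosome 6, 110645581 to 111567230, plus strand) encodes mGlu7, a receptor of low affinity for glutamate placed inside the active zone, and spans 922 kb, the longest of the 6. Its FPKM was 30.3, 28.8, 23.7 and 27.6 in the dorsal and 27.6, 29.3, 26.3 and 23.0 in the ventral libraries. High and low libraries were found in both regions. The means were 27.6 ± 2.83 (SD, n = 4) and 26.6 ± 2.67. On the log2(FPKM + 1) scale the difference was −0.05 ± 0.09 (SE, 95% interval −0.26 to 0.16), with an adjusted p of 0.852 from limma, and the exact permutation test, two-sided, gave p = 0.571. The table lists *Gm20386* and *Gm20387* in the same locus, the former at 0 in 5 libraries and up to an FPKM of 35.5, and strand was not stated, so fragments shared with *Grm7* are uncertain.

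*Grm8* (ENSMUSG00000024211, chromosome 6, 27275119 to 28135178, minus strand) encodes mGlu8, a presynaptic receptor of high affinity for glutamate. Its FPKM was 11.5, 9.60, 9.58 and 9.60 in the dorsal and 7.64, 10.4, 7.25 and 7.59 in the ventral libraries. A single library stood apart in each region, D1 among the dorsal and V3 among the ventral ones, and V3 lay above 3 of the 4 dorsal libraries. The means were 10.1 ± 0.951 (SD, n = 4) and 8.22 ± 1.46, at a log2(V/D) of −0.29. The difference in log2(FPKM + 1), ventral minus dorsal, was −0.27 ± 0.11 (SE, 95% interval −0.52 to −0.03), with an adjusted p of 0.253 from limma. The exact permutation test, two-sided, gave p = 0.114. Without the ventral library V3, *Grm8* was D>V, with a log2 fold change of −0.38 and an adjusted p of 0.0376 (limma). Over all genes, that fit gave 341 D>V genes against 294 with all libraries. Without the dorsal library D1, *Grm8* was not called, at −0.21 and an adjusted p of 0.473 (limma).

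*Grm6*, a group III receptor outside the 6 genes, was marked as having too few alignments and was not tested. It was listed at 0 in 6 of the 8 libraries and at no more than 0.0199 FPKM in the others.

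**Figure D3:**
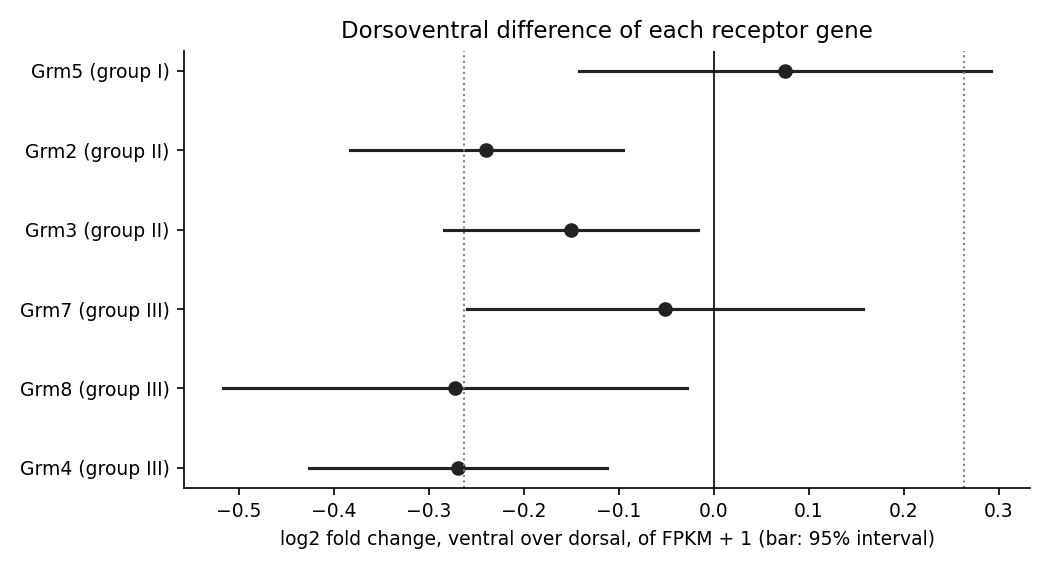
Log2 fold change of FPKM + 1, ventral over dorsal (x axis), with its 95% interval from limma for each receptor gene (y axis), grouped by receptor group and the dotted lines mark a difference of 20%. *Grm5* lies at 0.07, while the group II and III genes lie between −0.27 and −0.05.

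Within group III, *Grm4* had 0.223 to 0.281 of the FPKM of *Grm7* in dorsal and 0.174 to 0.228 in ventral libraries, which overlapped. Between group II and group I, the FPKM of *Grm2* relative to *Grm5* overlapped, at 0.300 to 0.383 and 0.235 to 0.311. These ratios were picked after the values were seen and are descriptions.

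The genes whose log2(FPKM + 1) ran most like that of each receptor over the 8 libraries are named as a description, over 8 points that also differ by region. Between 29 and 98 of the 13674 genes exceeded a Pearson correlation of 0.9 with a receptor. *Grm4* ran with *Clic4* (r = 0.97), a chloride intracellular channel protein, whose mean FPKM was 19.0 in dorsal and 12.8 in ventral MEC, and with *Mpp3* (r = 0.97), a membrane scaffold, at 5.12 and 3.13. *Grm2* ran with *Tmem128* and *Nacc2* (both r = 0.97). *Grm3* ran with *Phtf1* (r = 0.97) and the neuronal gene *Tagln3* (r = 0.96), and *Grm8* with *Mkln1* and *Herc1* (both r = 0.98). The nearest to *Grm5* were *Dzip3* (r = 0.98) and *Zbtb38* (r = 0.97), and to *Grm7* the gene *Gm9839* (r = 0.96). The regional means of *Dzip3* were 36.5 and 37.5 and those of *Gm9839* 1.75 and 1.53.

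The genes around the receptors, from the supply of glutamate to the enzymes that the receptors control, formed a list of 70 genes, of which 64 were tested. Among these, 5 were D>V and 3 were V>D, so that 8 of 64 were called against 3.60% of all genes. A lower ventral mean was found for 33, and the median log2(V/D) was −0.01, as over all genes. Only *Slc17a6*, *Adcy2* and *Adcy5* of the 8 were called under both other scalings. Scaled to equal total FPKM, the calls of *Slc7a11*, *Homer1*, *Prkcb* and *Rgs4* were lost (adjusted p of 0.0687, 0.105, 0.122 and 0.130, limma). That scaling gave 5 called pathway genes, among them a gene outside the 8. After quantile normalization those of *Elfn1*, *Homer1* and *Rgs4* were lost (adjusted p of 0.0559, 0.0530 and 0.0654, limma). Of the 6 genes not tested, *Slc17a8* and *Naalad2* had a mean FPKM under 1 and the other 4, with *Homer3*, *Gna14* and *Itpr3* among them, were marked as having too few alignments.

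On the side of the ligand, 8 of 9 genes of glutamate supply and clearance were tested. *Slc17a6*, the vesicular glutamate transporter VGLUT2, was D>V, with an FPKM of 10.7, 10.5, 11.1 and 10.8 in the dorsal and 7.65, 7.25, 6.54 and 7.40 in the ventral libraries (log2(V/D) = −0.58, adjusted p = 0.00235, limma). It was called in all 8 fits that left out a library. The cortical transporter *Slc17a7* (VGLUT1), far more abundant, had overlapping means of 107 ± 8.97 and 105 ± 9.67 (SD, n = 4). *Slc7a11*, the cystine-glutamate exchanger that releases glutamate outside synapses, was V>D, at 12.1 to 13.8 in dorsal and 14.8 to 16.9 in ventral libraries (log2(V/D) = 0.30, adjusted p = 0.0436, limma), but in 0 of the 8 fits without 1 library. In the deposited FPKM none of the 3 tested genes that make or break NAAG was called. The nearest was *Rimklb*, a NAAG synthetase, at 7.97 ± 1.23 and 11.2 ± 1.25 (adjusted p = 0.0587, limma).

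*Elfn1*, a postsynaptic protein that binds group III receptors across the synapse, was V>D. Its FPKM was 3.55, 3.23, 3.74 and 4.85 in the dorsal and 5.57, 5.24, 5.45 and 5.69 in the ventral libraries (log2(V/D) = 0.51, adjusted p = 0.0469, limma), and it was called in 1 of the 8 fits without a library. Its relative *Elfn2* had 13.4 ± 1.25 and 16.0 ± 1.80 (SD, n = 4), which was not called (adjusted p = 0.250, limma). *Grm4*, *Grm7* and *Grm8* had lower ventral means, but none of these receptors was called, and *Grm7* and *Grm8* overlapped between regions. A relation of *Elfn1* to these receptors was not tested.
Among scaffolds and binding partners, 1 of 12 tested was called. This was *Homer1*, the adaptor of group I receptors, which was D>V at 48.0, 40.0, 34.4 and 40.1 in the dorsal and 31.3, 31.1, 24.2 and 28.1 in the ventral libraries (log2(V/D) = −0.50, adjusted p = 0.0403, limma). It was called in 2 of the 8 fits without a library. A short form of *Homer1* is induced by activity, and FPKM summed over transcripts does not separate it from the long forms.

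Of the transducers, 0 of 9 G protein genes tested were called by limma, and 2 of them (*Gna11*, higher ventrally, and *Gnb5*, higher dorsally) lay apart, as did 11.1% of all genes. Among 10 effectors of group I, *Prkcb*, a protein kinase C, was D>V, with 218 ± 3.89 (SD, n = 4) in dorsal and 179 ± 3.31 in ventral libraries (log2(V/D) = −0.29, adjusted p = 0.0182, limma), in 4 of the 8 fits without a library. Among 8 effectors of groups II and III, the adenylyl cyclases moved both ways. *Adcy2* was D>V, at 26.4, 28.3, 27.6 and 27.0 against 18.3, 21.0, 21.2 and 19.8 (log2(V/D) = −0.44, adjusted p = 0.00530, limma). *Adcy5* was V>D, at 7.85, 7.87, 7.82 and 8.66 against 11.3, 10.4, 11.4 and 10.4 (log2(V/D) = 0.43, adjusted p = 0.0103, limma). Both were called in all 8 fits without a library. Of 12 genes of desensitization, *Rgs4*, which shortens Gi/o and Gq signals, was D>V, at 94.8 ± 4.93 and 73.6 ± 7.00 (log2(V/D) = −0.37, adjusted p = 0.0286, limma), in 2 of the 8 fits.

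**Figure D4:**
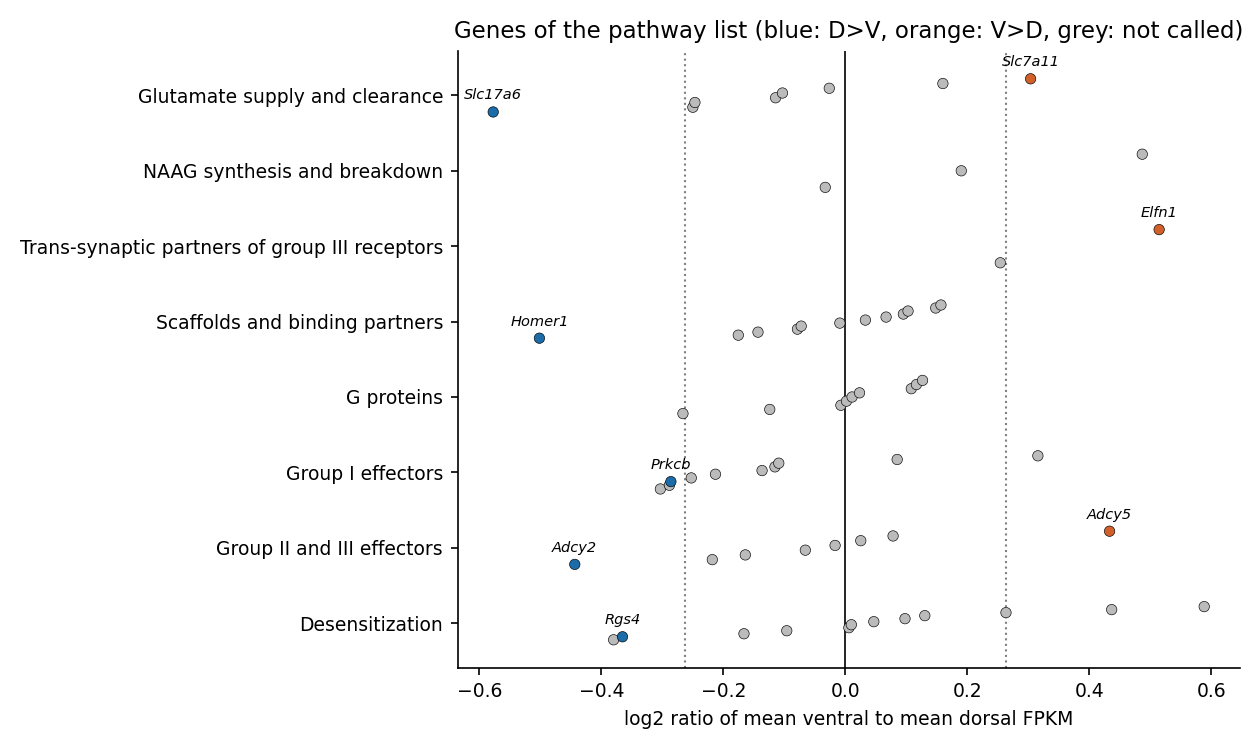
Log2(V/D) of the mean FPKM (x axis) for the 64 tested genes around the receptors by role (y axis), 1 point per gene, with D>V genes in blue, V>D genes in orange, others in grey, and dotted lines at a difference of 20%. The 8 called genes are spread over 6 of the 8 roles and lie on both sides of 0.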

How the data were processed

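Dorsal and ventral MEC were profiled by RNA-Seq in 4 libraries each. CASAVA 1.8, TopHat 2.0.8 and Cuffdiff are named for the processing, on mouse genome GRCm38 with Ensembl annotation. The authors deposited FPKM per gene and library, estimated by Cuffdiff from paired-end fragments, and the mean FPKM of each region. Their comparison columns (fold changes, p-values) were not used. A further 4 columns with per-sample values stayed out, fragment numbers among them, because their row names match no single sample, so no count test was run. Whether strand was used is not given in the sources used here.

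Genes that Cuffdiff deemed testable, at a mean FPKM of 1 or more, entered limma 3.58.1 (R 4.3.3) as log2(FPKM + 1), with the trend option and Benjamini-Hochberg adjustment over 13674 genes. Adding 1 understates changes of low genes. Calls need an adjusted p under 0.05 and a 20% ratio of means. The fit was also run on simulated data with independent noise and changes of 1 on the log2 scale. Those changes were larger than any receptor difference, so that run cannot tell whether differences of the receptors' size are found. Single genes were also compared by exact permutation. The p-values measure the spread between libraries within a region, each from a pool of mice. Dorsal and ventral tissue came from the same 4 groups of mice, and both tests treat the libraries as unpaired. The rule for named genes takes the 6 receptors, other receptors of the family, the called genes of the pathway list and, for each receptor, the 2 genes of highest correlation. Members and lists were chosen with earlier results of these data known, and other genes are named after their values were seen. Positions are those of GENCODE M21 (GRCm38). Python 3.11.15, NumPy 2.4.6, pandas 2.3.3 and matplotlib 3.10.9 were used. Alternatives covered the added constant, filters, scaling, quality weights, regions by header and each library left out. Results on some genes that the rule names are not reported here.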

Additional observations from a re-analysis of the deposited data

Results flagged for a closer look

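*Grm8* was flagged in both regions because 1 library stood far from the other 3, among 12 groups of 4 libraries examined (6 receptor genes in 2 regions), of which chance flags about 1 in 20. In dorsal MEC the library D1 had an FPKM of 11.5 against 9.58 to 9.60 in the others, a gap of 0.986 of the whole range. In ventral MEC the library V3 had 10.4 against 7.25 to 7.64, a gap of 0.877 of the range. Both exceed Dixon's 95% critical value for 4 samples.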

How the results depend on the processing

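No paired analysis was possible because the column names do not tell which dorsal and ventral libraries come from the same mice. If regions followed the column headers, 1 gene was D>V, 0 were V>D and 0 of the pathway list were called (limma, 721 genes at an unadjusted p under 0.05), and the log2 fold changes of *Grm7* (0.0099) and *Grm8* (0.056) changed sign. Restricted to the 4 libraries where header and region match, 0 genes were D>V, 0 V>D and 0 of the pathway list were called (1232 at an unadjusted p under 0.05). No receptor was called in these fits. After scaling to equal total FPKM, 195 genes were D>V, 201 V>D and 5 pathway genes were called, against 294, 198 and 8. That scaling put the median difference over all genes at 0.04 in place of −0.01 (log2). Quantile normalization also gave 5 pathway genes. Library quality weights gave *Grm4* as D>V, at −0.28. Leaving out each library in turn gave 157 to 341 D>V genes, 91 to 191 V>D genes and 3 to 7 called pathway genes. D>V genes dropped by over 1.5 times without V1 (157), D3 (163) or V2 (189), and V>D genes without V1 (91), D3 (91), D4 (121) or D2 (123), while pathway calls fell to 5 or fewer without any library other than V3. In those fits the log2 fold change of *Grm4* lay between −0.30 and −0.24, of *Grm2* between −0.28 and −0.21, of *Grm3* between −0.18 and −0.11, of *Grm5* between 0.022 and 0.14, of *Grm8* between −0.38 (without V3) and −0.21, and of *Grm7* between −0.12 and 0.013 (without V4). The cause of these changes was not tested. The order of the receptors by level was the same in those 8 fits and by medians. A constant of 0.1, other filters and calls by the adjusted p alone, the last chosen after seeing the data, changed no call among the 6 receptors.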
